A study of Panax japonicus with 15 samples.

Results

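In the fruit wall of Panax japonicus, a medicinal herb of the ginseng genus, 21 of 462117 transcript clusters were low in the P period and in no other of the 5 fruit-colour periods sampled. They were chosen by their measured levels: the highest TPM of the 3 P libraries was at most 50% of the lowest TPM of the 12 other libraries. That lowest TPM was at least 5, and the G and B period means of log2(TPM + 1) were less than 1 apart. TPM corrects for transcript length, so levels of different transcript clusters within a library can be compared on it. It sums to the same value in every library, so a level also depends on the rest of that library. The rule thus used the P against other-period differences and the G against B difference to choose the members. They are given as description, without a test. The differences of Y and R from G and B, and of Y from R, were not themselves used by the choice and were tested. The choice did use the lowest of the 12 other libraries, which limited how low any of Y, R, G and B could be. An F test over Y, R, G and B is also given, but it takes in the G against B difference that the choice limited.

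RNA was from pericarp, the fruit wall left once the seed is cut away, with 3 libraries in each of the periods P, Y, R, G and B. The plants grew in the high mountains of Guizhou, and no treatment, genotype or control group is named. The labels do not spell out the letters or put the periods in an order. The libraries of a period are called biological replicates, with nothing on the plants or days behind them, so the p-values reflect only the variation among these libraries. In bulk tissue, fewer cells of a type and less RNA per cell cannot be told apart.

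In fleshy fruits in general, colour change goes with the loss of chlorophyll from the green wall and the build-up of carotenoids in plastids or of anthocyanins in vacuoles, alongside changes in the cell wall and in defence compounds. The study asked how such colour traits relate to gene expression. The table gives identifiers of the form Cluster-number.number and does not pair them with genes, so no function is given for any member. All 21 members carried the identifier prefix 64249, as did all 9632 transcript clusters that met the floor and the G and B condition and so could have been chosen; the prefix was on 84.0% of all identifiers.

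The P libraries differed from the others in more than these members. P1, P2 and P3 held 97466, 130422 and 187300 transcript clusters above 0 TPM, against 145724 to 180948 in the 12 other libraries, so P1 and P2 were below and P3 above that range. Transcript clusters with at least 1 TPM in at least 3 libraries held 68.1% to 78.4% of TPM in P and 82.0% to 92.4% elsewhere. The median-ratio scaling factor, computed over the 33508 transcript clusters with a value in every library, was 0.843 to 0.871 in P and 0.940 to 1.13 elsewhere. TPM carries no read depth, so the depth is unknown and no counting interval is given.

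Together the 21 members summed to 73.9, 85.4 and 137 TPM in P1, P2 and P3. They summed to 937, 895 and 835 TPM in Y, to 845, 955 and 899 TPM in R, to 636, 760 and 761 TPM in G, and to 560, 621 and 572 TPM in B (replicates 1, 2 and 3 of each). The P mean of 98.8 ± 33.7 TPM (SD, n = 3) was 12.8% of the mean over the other 12 libraries. The Y and R libraries lay highest, and every Y and R sum was above every G and B sum on the TPM as deposited. With median-ratio scaling this separation was lost, since G3 summed to 809.5, above Y3 at 804 and R1 at 792. The means were 889 ± 51.4 TPM in Y, 900 ± 55.3 TPM in R, 719 ± 72.1 TPM in G and 584 ± 32.3 TPM in B (SD, n = 3 each).

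**Figure D1:**
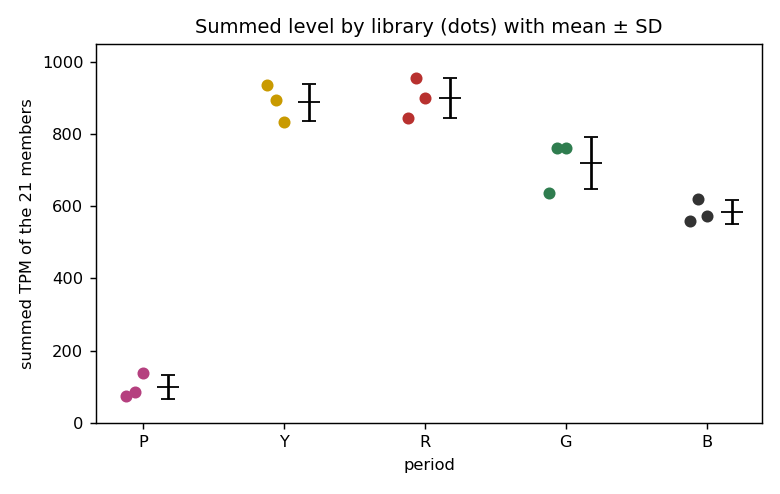
Summed TPM of the 21 members in each library (dots) for the periods P, Y, R, G and B, with the period mean ± SD (n = 3). The P libraries stand at 73.9 to 137 TPM and the other 12 at 560 to 955 TPM.

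With median-ratio scaling the P mean was 115 ± 37.6 (SD, n = 3), or 15.4% of the mean over the other 12 libraries. On log2(TPM + 1), the median P difference from the mean of the 4 other periods was -2.56 over the members as deposited, with a range from -5.25 to -1.71. Over the 9632 that could have been chosen it was -0.36, and over all 138664 tested it was -0.31. Scaling moved these medians to -2.32, -0.11 and -0.18. Relative to the median of the 9632, the members' median was -2.20 as deposited and -2.21 with scaling. Scaling shifts both sets by nearly the same amount, so this difference could hardly change. The choice itself had set the members low in P.

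The members covered a wide range of levels outside P. Averaged over the 12 Y, R, G and B libraries, 7 members stood at 50 TPM or more, 5 between 20 and 50 TPM, and 9 under 20 TPM, from 7.20 to 103 TPM. The P mean, as a share of that average, was under 5% for 6 members, from 5% to 15% for 5 and 15% or more for 10, with a median of 13.5% and a highest value of 23.8%. So the list held both transcript clusters at or near 0 in P and transcript clusters still measured in every P library.

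**Figure D2:**
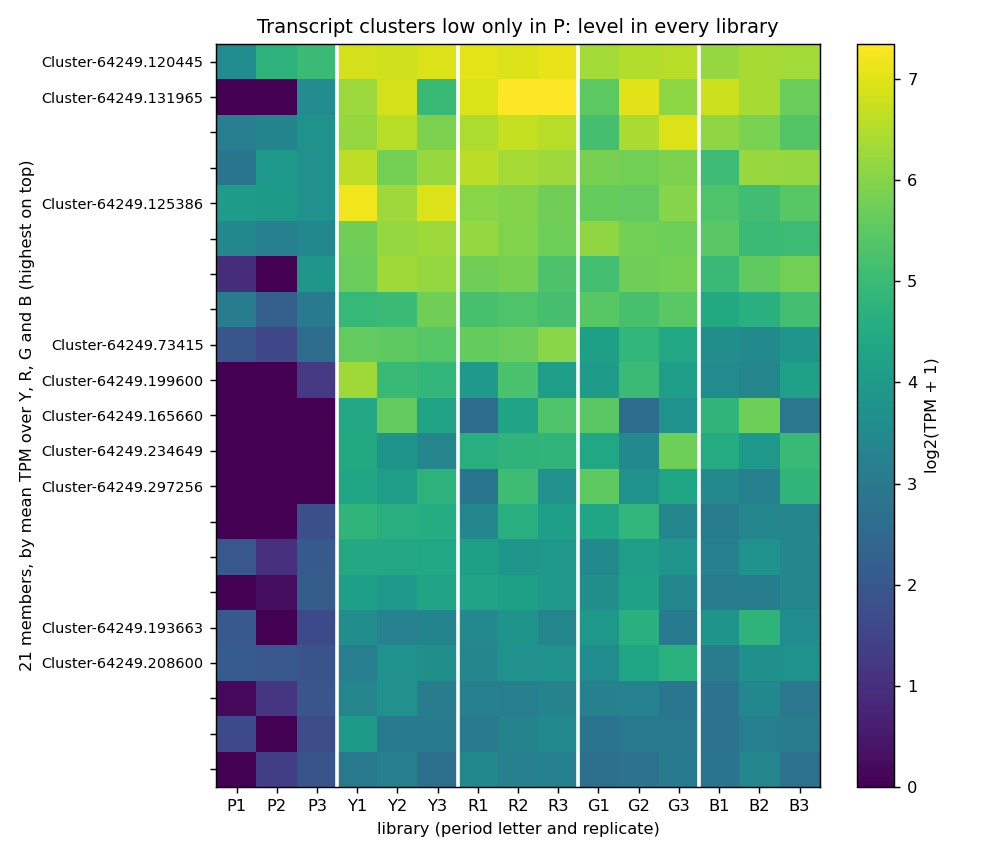
Log2(TPM + 1) of the 21 members (rows, highest mean over Y, R, G and B on top) in all 15 libraries (columns, P at left), with the members described in the text labelled. The P columns are darkest in every row, and P3 is the brightest P column in 12 of the 21 rows.

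The most abundant member, Cluster-64249.120445, was also one of the steadiest. It stood at 11.0, 25.7 and 31.0 TPM in P1, P2 and P3. It stood at 116, 112 and 122 TPM in Y, at 131, 123 and 136 TPM in R, at 78.9, 88.9 and 93.75 TPM in G and at 72.5, 83.35 and 79.8 TPM in B. The lowest of the 12 other libraries, B1, was more than 2 times the highest P library, and the 12 spanned only 1.88-fold. Its P mean was 22.6 ± 10.4 TPM (SD, n = 3), which was 21.9% of its mean over the other 12 libraries.

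Cluster-64249.234649 had the widest gap between P and the rest on log2(TPM + 1), at 3.34. It was listed at 0 in all 3 P libraries. It stood at 20.95, 12.9 and 9.13 TPM in Y, at 23.9, 26.45 and 27.2 TPM in R, at 19.8, 10.4 and 52.1 TPM in G and at 21.7, 14.0 and 30.9 TPM in B. The R libraries lay close together and the G libraries spanned the widest range.

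The other two members listed at 0 in all P libraries were Cluster-64249.165660 and Cluster-64249.297256, named after their values were seen. Cluster-64249.165660 was the most uneven of all members. It stood at 20.7, 47.2 and 18.6 TPM in Y, at 5.07, 18.4 and 38.8 TPM in R, at 43.5, 5.11 and 12.5 TPM in G and at 27.0, 52.2 and 6.47 TPM in B, a 10.3-fold span. Each of R, G and B had a library near the 5 TPM floor beside libraries far above it. Cluster-64249.297256 stood between 16.5 and 25.7 TPM in Y, between 6.18 and 32.7 TPM in R, between 12.7 and 45.2 TPM in G and between 8.28 and 26.9 TPM in B.

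Presence in P differed between its 3 libraries. Of the 21 members, 10 were above 0 in all 3 P libraries and 3 in none. Another 3 were above 0 in P3 alone, 2 in P2 and P3, and 3 in P1 and P3. The members listed at 0 numbered 8 in P1, 9 in P2 and 3 in P3. Of the 9632 that could have been chosen, 310 were listed at 0 in P1, 118 in P2 and 13 in P3, or 3.22%, 1.23% and 0.135%. The members were chosen for low P values, so their larger share at 0 follows from the rule. P3, the P library with the most transcript clusters above 0, thus also had the fewest members at 0, and it held the highest P value for 12 members, against 5 for P1 and 1 for P2. The part of library content in these zeros was not tested.

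Cluster-64249.131965, singled out after its values were seen, had this uneven form at a high level. It was listed at 0 in P1 and P2 and stood at 10.8 TPM in P3. It stood at 75.0, 117 and 29.8 TPM in Y, at 121, 162 and 162 TPM in R, at 44.2, 130 and 68.1 TPM in G and at 110, 83.0 and 50.7 TPM in B. The lowest of these, Y3, was less than 3 times the P3 value, while the period mean in P, 3.59 ± 6.22 TPM (SD, n = 3), was 3.74% of its mean over the other 12. Its distance from the rest therefore depended on which P library it was measured in.

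Members with a measurable level in every P library formed the other end. Cluster-64249.208600 stood at 3.40, 3.01 and 2.72 TPM in P, at 7.78, 12.75 and 11.65 TPM in Y, at 9.54, 12.2 and 12.35 TPM in R, at 10.8, 19.4 and 24.9 TPM in G and at 7.64, 11.9 and 12.7 TPM in B. Its P libraries lay within 1 TPM of each other, and its P mean was 23.8% of the mean over the other 12, the highest share among members. Over the 18 members above 0 in P, the median coefficient of variation between P libraries was 69.0%, against 23.6% in Y, 13.9% in R, 25.2% in G and 26.3% in B over all 21. For the 9632 that could have been chosen these medians were 25.4% in P, 14.8% in Y, 11.7% in R, 21.8% in G and 19.7% in B. In P1, P2 and P3 the median level was 2.11, 0.98 and 3.19 TPM over the 21 members. It was 14.3, 15.1 and 16.1 TPM over the 9632. The coefficient divides by the mean, and the choice made the members low in P, so nothing is read from its contrast in P.

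P3 and the B libraries most often set the ratio that decided membership. Taken alone, P1 was at most 50% of the lowest other library for 912 of the 9632 that could have been chosen, P2 for 457 and P3 for 102. The rule found 158 transcript clusters without P3, 50 without P2 and 35 without P1. All 21 members were among each, because leaving out a P library can only lower the highest P value. The lowest of the 12 other libraries was a B library for 14 members, a G library for 3, a Y library for 2 and an R library for 2. Among the 9632 it was a G library for 3932, a B library for 3224, a Y library for 1253 and an R library for 1223.

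Many members stood close to the limits of the rule. The ratio of the highest P library to the lowest other library ran from 0 to 0.491, and 10 members had a ratio above 0.4. The member just inside had 2.74 TPM in its highest P library and 5.58 TPM in its lowest other one, and the transcript cluster just outside had 3.04 and 6.05 TPM, a ratio of 0.502. At the floor, the member just inside had 5.07 TPM in its lowest other library and the one just outside had 4.68 TPM. On the G and B condition, the member just inside had a G minus B difference of 0.91 and the one just outside 1.26, on log2(TPM + 1).

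**Figure D3:**
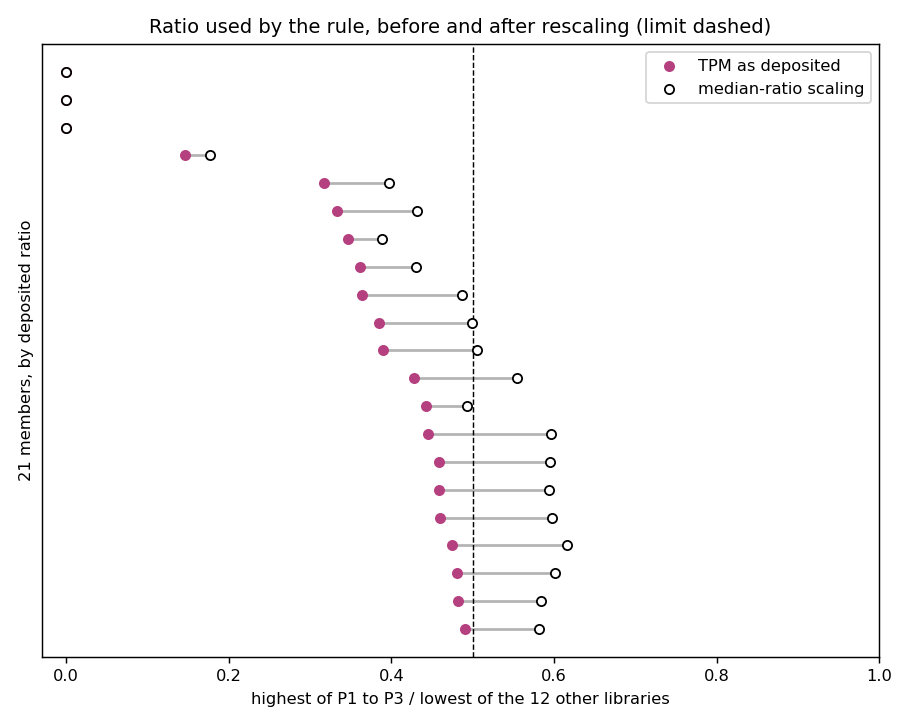
Ratio of the highest of the 3 P libraries to the lowest of the 12 other libraries for each of the 21 members, on TPM as deposited (filled) and with median-ratio scaling (open); the dashed line is the limit of 0.5. Every open point stays under 1, as the scaling factors and the limit made certain. Of the open points, 10 lie above the limit, the highest at 0.616.

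Rescaling shortened the list. With median-ratio scaling 9 transcript clusters met the whole rule, and all 9 were among the 21. Of the 12 lost, 10 rose above the limit of the ratio, with the highest at 0.616, 1 fell under the floor and 1 rose above the G and B limit. All 21 still had every P library below every other library after scaling. That was fixed in advance, since factors of 0.843 to 1.13 were too close to bring a ratio within the limit up to 1. Cluster-64249.120445, the most abundant member, was among the 12, with a ratio of 0.555 after scaling and 0.428 before.

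Of all 138664 tested transcript clusters, 1.52% had every P library below the other 12, and of the 9632 that could have been chosen 8.81% had, or 849; the 21 members, all without overlap by the rule, were 0.218% of the 9632. The 7 transcript clusters that met the rule except for the G and B condition were all higher in G than in B. Without that condition, the same limits gave 28 transcript clusters low only in P, 2 low only in Y, 1 low only in R, 151 low only in G and 8 low only in B. With median-ratio scaling these became 13 for P, 2 for Y, 1 for R, 145 for G and 17 for B, so that the order of P and B turned.

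Outside P, most members varied by less than 2-fold between period means, as did most transcript clusters that could have been chosen. The highest of the 4 period means of Y, R, G and B was less than 2 times the lowest for 16 of the 21, or 76.2%, with a median of 1.71-fold and a range from 1.29-fold to 4.69-fold. Among the 9632 that could have been chosen it was less than 2 times for 85.1%, with a median of 1.51-fold. The closeness of G and B within these figures was in part set by the choice. The moderated F test of limma over these 4 periods, fitted to all transcript clusters, called 2 members at an adjusted p under 0.05 and 4 at an unadjusted p under 0.05. The 2 were 9.52% of the members. The same test called 5.24% of all 138664 tested and 5.17% of the 9632 that could have been chosen, at an adjusted p under 0.05. No such share is given for the unadjusted p. Because this F test includes G against B, which the choice capped, nothing is read from the count about how even the members were. Leaving out a single library could add a call: Cluster-64249.97777, named after its values were seen, had an adjusted p of 0.0651 and passed without B replicate 1 (0.0475), and Cluster-64249.120445, at 0.309, passed without P replicate 1 (0.0149; limma F test). A call that is missed does not show that the 4 levels were the same.

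The 2 called members, Cluster-64249.73415 and Cluster-64249.125386, were both higher in Y and R than in G and B. By the contrast of the mean of Y and R with the mean of G and B, 2 members were higher (1.24% of all tested and 2.96% of the 9632 were called higher) and 0 were lower (0.436% and 0.478%). At an unadjusted p under 0.05 the numbers were 6 higher and 0 lower (limma). No share over all tested is given at that threshold, so nothing is read from these 2 numbers. Over all 21 the difference was positive for 17, with a median of 0.36 on log2(TPM + 1), against a median of 0.10 and 6236 positive among the 9632. With median-ratio scaling the medians were 0.29 and 0.03, with 17 of 21 and 5237 of 9632 positive.

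Cluster-64249.73415 had the largest difference among members. It stood at 2.90, 1.97 and 5.04 TPM in P. It stood at 46.5, 45.1 and 41.9 TPM in Y, at 48.3, 50.1 and 65.1 TPM in R, at 17.2, 27.6 and 19.8 TPM in G and at 11.3, 10.5 and 13.1 TPM in B. The 5 periods thus formed steps, with every Y and R library above every G library and every G library above every B library. The Y and R mean was higher than the G and B mean by 1.58 ± 0.19 on log2(TPM + 1) (SE; limma, adjusted p 0.00114), and the call held under all 21 alternatives tried, with adjusted p from 0.000241 to 0.00558. This member was also near the edge of the list, with a P to lowest-other ratio of 0.482 and a mean of only 11.6 ± 1.37 TPM in B (SD, n = 3).

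Cluster-64249.125386 was highest in Y alone. It stood at 15.9, 15.2 and 12.1 TPM in P. It stood at 147, 76.7 and 124 TPM in Y, at 64.5, 62.0 and 53.3 TPM in R, at 48.3, 46.9 and 63.7 TPM in G and at 39.2, 33.0 and 42.7 TPM in B. Every Y library lay above every R library, while R and G overlapped. The Y and R mean was higher than the G and B mean by 0.86 ± 0.17 on log2(TPM + 1) (SE; limma, adjusted p 0.0207). That call was lost without Y replicate 1 (adjusted p 0.0581), Y replicate 3 (0.0562), R replicate 1 (0.0594), R replicate 2 (0.0557), G replicate 2 (0.0522) or B replicate 2 (0.0599), leaving 1 member called higher each time. It was also lost with median-ratio scaling (adjusted p 0.0508) and with no filter on low values (0.0628; limma). Over all 21 alternatives its adjusted p ran from 0.00375 to 0.0628 (limma). Its F test stayed under 0.05 in each, with adjusted p from 0.0015 to 0.0378 (limma). Over all tested, 1717 of 138664 were called higher in Y and R in the main fit. The fits without the libraries just named called 948 to 1252, median-ratio scaling 1346 of 137026 and no filter 764 of 406956.

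**Figure D4:**
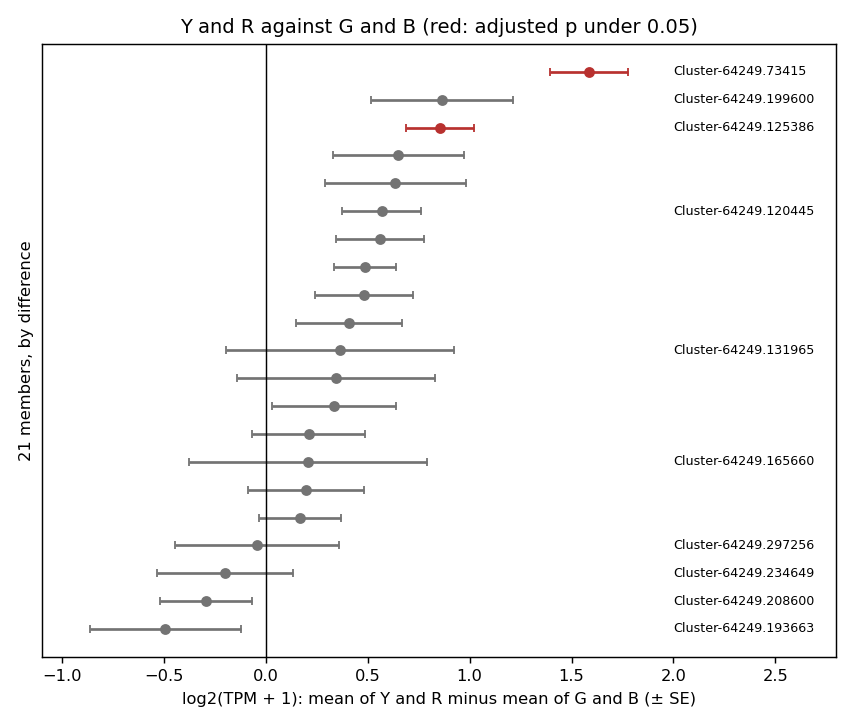
Difference of the mean of Y and R from the mean of G and B on log2(TPM + 1) for each of the 21 members, with the SE from limma; red points have an adjusted p under 0.05 and the described members are labelled. Of the 21 points, 17 lie above 0 and 2 are red.

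All 6 Y and R libraries stood above all 6 G and B libraries for 2 members, Cluster-64249.73415 and Cluster-64249.120445, and below them for 0; both kept this with median-ratio scaling, Cluster-64249.120445 narrowly, at 102 or more in Y and R and at most 99.7 in G and B. The shares above were 0.746% of all 138664 tested and 3.18% of the 9632 that could have been chosen, and the shares below 0.242% and 0.592%. Cluster-64249.120445 differed by 0.57 ± 0.19 on log2(TPM + 1) and was not called (SE; limma, adjusted p 0.204). Its adjusted p was 0.00844 in a fit on the 12 Y, R, G and B libraries alone and 0.0104 without P replicate 1, and from 0.0779 to 0.508 under the other alternatives (limma). The main fit shares 1 spread over all 5 periods, and this member's P libraries ran from 11.0 to 31.0 TPM.

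Cluster-64249.199600 had the second largest difference and a wide spread. It was listed at 0 in P1 and P2 and stood at 1.32 TPM in P3. It stood at 77.1, 30.85 and 28.1 TPM in Y, at 14.3, 36.7 and 16.0 TPM in R, at 15.5, 31.3 and 16.1 TPM in G and at 10.7, 9.06 and 17.3 TPM in B. The Y, R and G libraries overlapped, and its difference of 0.86 ± 0.35 was not called (SE; limma, adjusted p 0.31).

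In the other direction, 4 members had a negative difference and none was called. Cluster-64249.193663 stood at 3.14, 0 and 2.15 TPM in P, at 11.2, 8.51 and 8.91 TPM in Y, at 10.1, 12.9 and 9.38 TPM in R, at 14.1, 24.5 and 7.10 TPM in G and at 13.0, 26.7 and 10.8 TPM in B. B2 lay well above the other B libraries, and the G libraries were spread from 7.10 to 24.5 TPM. The difference of this member was -0.49 ± 0.37 (SE, limma, adjusted p 0.665). Cluster-64249.208600, whose values stand above, differed by -0.29 ± 0.23 (SE; limma, adjusted p 0.677).

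**Figure D5:**
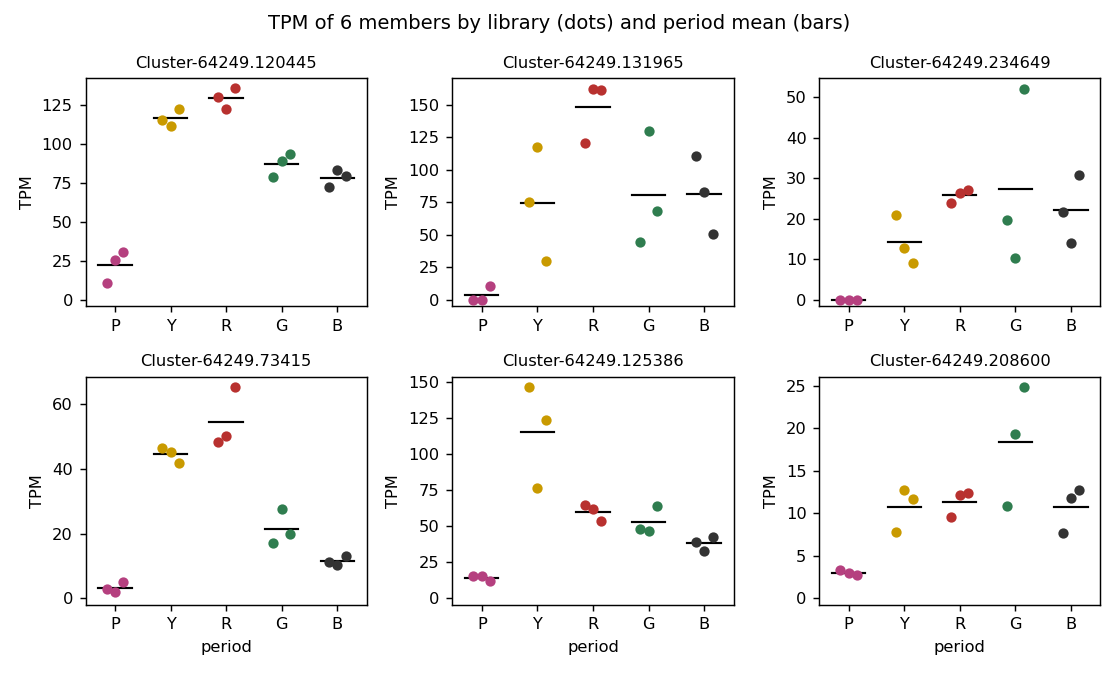
TPM of 6 members in each library (dots) and the period mean (bars) for P, Y, R, G and B. Cluster-64249.120445 and Cluster-64249.73415 have Y and R above G and B without overlap. Cluster-64249.131965 and Cluster-64249.234649 spread widely within some periods but less so in R.

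No member was called in the contrast of Y with R, although the libraries of Y and R did not overlap for some. By limma, 0 members were higher and 0 lower in Y by adjusted p, against 0.107% and 0.11% of all tested and 0.0623% and 0.0104% of the 9632 that could have been chosen (limma). At an unadjusted p under 0.05, 1 was higher and 0 were lower (limma), again without a share over all tested, so nothing is read from this. The median difference was 0.00 over the members, 0.03 over the 9632 and -0.01 over all tested, on log2(TPM + 1), and 10 of 21 members were higher in Y. All 3 Y libraries lay above all 3 R libraries for 2 members, Cluster-64249.125386 and Cluster-64249.102909, where 6.81% of all tested and 14.9% of the 9632 did so. They lay below all 3 R libraries for 5 members, Cluster-64249.120445, Cluster-64249.131965, Cluster-64249.73415, Cluster-64249.234649 and Cluster-64249.128370, where 7.95% and 10.6% did so. Cluster-64249.102909 and Cluster-64249.128370 were named after their values were seen. With median-ratio scaling the numbers were 3 above and 4 below. The shares above were then 7.15% of all tested and 16.2% of the 9632, and the shares below 7.74% and 9.88%.

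Among the 4 other periods, B was most often the lowest and Y or R most often the highest for these members. B had the lowest mean for 13 members, Y for 4, G for 4 and R for 0; among the 9632 B was lowest for 32.3%, G for 36.3%, R for 17.1% and Y for 14.4%. Y had the highest mean for 9 members, R for 7, G for 4 and B for 1; among the 9632 these shares were 30.5% for Y, 24.0% for R, 20.6% for G and 25.0% for B. The spread over the 12 libraries was also wider in the list, with a median of 3.26-fold between the highest and lowest library against 2.36-fold among the 9632. These counts describe 21 transcript clusters and carry no test.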

How the data were processed

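The authors deposited 1 table of TPM for 15 libraries, as its name and its equal column sums show. How transcripts were assembled, aligned and quantified is not stated in these sources. Mouse genome builds appear in the submitters' processing notes, yet no identifier refers to a mouse gene. Each column matched 1 library by title, and no 2 libraries held identical values. Transcript clusters with at least 1 TPM in at least 3 libraries (138664) were transformed to log2(TPM + 1), which understates differences at low TPM. The 21 members all passed. One limma model (version 3.58.1, R 4.3.3; residual degrees of freedom 10) with 5 period means and a variance prior that follows mean expression was fitted to all 15 libraries, with Benjamini-Hochberg adjustment over all transcript clusters and calls at an adjusted p under 0.05. The model was checked on simulated data. Counting used Python 3.11.15, pandas 2.3.3 and NumPy 2.4.6; matplotlib 3.10.9 drew the figures.

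The rule for named members took the most abundant one, the one with the widest gap to P, and the 2 largest differences of Y and R from G and B in each direction; others named were chosen after their values were seen. The members, lists and rules were chosen with earlier results of these data known. The alternatives were other limits of the rule, another pseudocount, other filters, median-ratio scaling, a replicate block, a fit without P and leaving out each library.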

Additional observations from a re-analysis of the deposited data

How the results depend on the processing

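The number of members depended most on the P libraries and on the limits of the rule. It was 9 with median-ratio scaling, 82 with a floor of 1 TPM, 9 with a floor of 10 TPM, 849 with the highest P library anywhere below the lowest other one, and 4 with P at most 0.25 of it. It was 28 without the G and B condition and 21 with a pseudocount of 0.1 in it. Leaving out 1 library gave 22 to 158 members. Of the 21, 20 stayed without any single G library and 19 without B replicate 3. All 21 stayed when any other library was left out. The 2 members called different among Y, R, G and B were 2 or 3 under all 21 alternatives. Over all tested these calls ran from 4285 of 16567 with a mean TPM of at least 10 to 8548 of 138664 in the fit without P. The 2 called higher in Y and R than in G and B were 1 with no filter, 1 with median-ratio scaling and 1 to 3 when a library was left out. They were 3 with a mean TPM of at least 10 and 3 in the fit without P. Over all tested, 1717 of 138664 were called higher in the main fit, 764 of 406956 with no filter and 1346 of 137026 with scaling. It was 948 to 2213 when a library was left out, 1588 of 16567 with a mean TPM of at least 10 and 1974 of 138664 without P. The numbers lower in Y and R, and higher or lower in Y than in R, were 0 under all 21. With a mean TPM of at least 10, 18 of the 21 members were tested. The replicate block gave 2 members different among the 4 periods and 2 higher in Y and R, with 5731 and 1185 of 138664 called over all tested. Same-numbered libraries of different periods showed little joint deviation (correlations from -0.0615 to 0.0769 over 30 pairs). The other 60 pairs ran from -0.056 to 0.0422. No pairing by number was seen, but whether a number stands for a shared plant or day is unknown. Values near 0 TPM cannot be read more finely, because read depth is unknown. The cause of each change was not tested, except that leaving out P libraries, raising or lowering a limit or dropping a condition changes the rule itself.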
